A study of Homo sapiens with 24 samples.

Results

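The chromatin sites of ZNF546, a KRAB-containing zinc finger protein (KZFP), were taken from the peak list of its single ChIP-exo library. The paper counted ZNF546 among KZFPs with few or no peaks, and read this as other modes of DNA binding or none. It also described the protein as associated with the endoplasmic reticulum. All peaks with a MACS score above 80 were used, 24 of 385 deposited ones, and the score is 10 times the negative log10 of the peak caller's p-value. The 21 KZFP libraries of the series together held 31717 peaks above 80 out of 64063 deposited. Among the ChIP-exo libraries ZNF546 had the fewest peaks above 80, followed by ZNF729 with 43. Human embryonic kidney HEK293T cells carried an HA-tagged KZFP under a doxycycline-inducible promoter, were selected with puromycin for 7 days and were induced with doxycycline at 1 µg/ml. DNA bound by the tagged protein was recovered with an antibody against HA, 15 µg per immunoprecipitation. The cells used for ZNF546 and ZNF251 went through ChIP-exo, where the immunoprecipitated fragments are digested by an exonuclease up to the bound protein. The cells used for ZNF746 and for a HEK293T control went through ChIP-seq without that step. Each KZFP had 1 library and was overexpressed from a transgene, so that no replicate error was available and no test between KZFPs was made. Intervals given for shares are exact Clopper-Pearson 95% intervals and cover counting error only.

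KZFPs bind DNA through arrays of C2H2 zinc fingers, and many of them recruit KAP1 (TRIM28) through their KRAB domain to silence transposable elements. Promoters within CpG islands are rich in GC and in unmethylated CpG dinucleotides and usually lack a TATA box. They often carry GC boxes, the short GC-rich elements recognised by Sp1 and related zinc finger factors. A site was called a promoter site here when at least 1 base of the peak lay within 2500 bp of the transcription start site (TSS) of a protein-coding transcript.

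The DNA under the promoter peaks of ZNF546 held GC boxes, GGGCGG on one strand or CCGCCC on the other, in varying number. The following stretches of 90 bases, from hg19 and written 5′ to 3′ along the strand of the gene, are those free of exons with the most GC boxes in each peak. Shown are 5 promoters whose stretch held 2 or more and ATP5F1B, whose stretch held 0, with capitals marking GC boxes. The stretches of ZNF697 and SNU13 also held 0, and those of ACTR2 and FOXL3 held 1. They are chrX:38420704-38420793 on the plus strand (TSPAN7), chr1:244816308-244816397 on the plus strand (DESI2), chr9:103189335-103189424 on the plus strand (MSANTD3), chr18:59992430-59992519 on the plus strand (TNFRSF11A), chr4:108852608-108852697 on the plus strand (CYP2U1) and chr12:57039769-57039858 on the minus strand (ATP5F1B).
TSPAN7: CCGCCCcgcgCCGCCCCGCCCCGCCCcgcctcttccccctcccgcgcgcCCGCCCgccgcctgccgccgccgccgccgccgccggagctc
DESI2: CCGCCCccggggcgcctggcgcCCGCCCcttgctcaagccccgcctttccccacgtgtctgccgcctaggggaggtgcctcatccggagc
MSANTD3: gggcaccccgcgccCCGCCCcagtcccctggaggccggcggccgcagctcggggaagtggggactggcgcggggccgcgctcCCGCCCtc
TNFRSF11A: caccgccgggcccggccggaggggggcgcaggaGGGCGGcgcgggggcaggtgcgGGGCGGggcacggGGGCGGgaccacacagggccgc
CYP2U1: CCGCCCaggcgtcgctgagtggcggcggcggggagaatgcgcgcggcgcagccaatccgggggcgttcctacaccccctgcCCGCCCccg
ATP5F1B: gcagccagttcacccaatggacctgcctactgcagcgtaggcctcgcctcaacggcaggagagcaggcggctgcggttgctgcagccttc

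A different kind of site lay away from protein-coding promoters, at 3 copies of 1 duplicated segment on chromosomes 19 and 17. Over the chromosome 19 peak, the chromosome 17 copies were 95.2 and 94.8% identical to it. The peak at the second of these scored below 80 (66.84). The copies are shown over the 90 bases at the centre of the chromosome 19 peak, chr19:14406064-14406153 on the plus strand, and over the aligned bases of the other two, chr17:30387789-30387878 and chr17:28971779-28971868 on the minus strand. Capitals mark the bases that differ from the chromosome 19 copy.
Chromosome 19 copy: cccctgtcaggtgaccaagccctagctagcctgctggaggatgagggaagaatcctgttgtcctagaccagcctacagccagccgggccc
Chromosome 17 copy at 30387789: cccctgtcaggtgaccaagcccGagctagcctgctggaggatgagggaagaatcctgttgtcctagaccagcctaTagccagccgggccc
Chromosome 17 copy at 28971779: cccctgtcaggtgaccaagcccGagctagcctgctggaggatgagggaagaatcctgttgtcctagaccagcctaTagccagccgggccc

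Near the TSS of any annotated transcript, at most 2500 bp away, were 17 of the 24 ZNF546 peaks (70.8%, interval 48.9 to 87.4%). The same share was 20.3% over the 31693 peaks above 80 of the other 20 KZFP libraries. It was 23.3% for ZNF251, with 20974 peaks, and 91.2% for ZNF746, with 260. Libraries with at least 20 peaks above 80, other than ZNF546 and ZNF746, ran from 6.98% (ZNF729) to 46.0% (ZNF763). Counting protein-coding transcripts only, 14 ZNF546 peaks were at a TSS (58.3%, interval 36.6 to 77.9%), against 12.7% for ZNF251 and 83.5% for ZNF746. The HEK293T control, a ChIP-seq library with 163 deposited peaks of which 4 scored above 80, overlapped 0 of the 24. With so short a list from another assay, this overlap cannot show whether a peak is background. No library of the 22 had a peak over the ZNF546 gene itself, on chromosome 19 from 40490041 to 40526945.

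**Figure D1:**
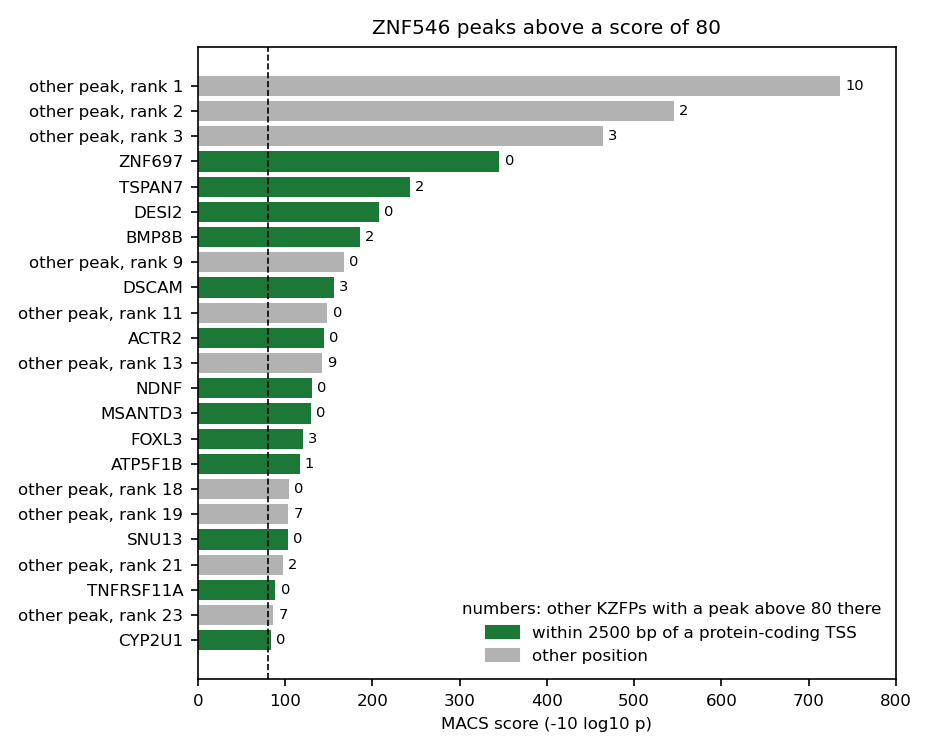
MACS score (10 times the negative log10 of p, linear axis) of 23 of the 24 ZNF546 peaks above 80, ranked from the highest at the top, with green bars for 13 promoter peaks and grey bars for the other 10. The number at each bar counts the other KZFPs with a peak above 80 at that position, and the 3 highest peaks are all grey.

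The share of peaks at protein-coding promoters differed between strong and weak ZNF546 peaks. It was 8.24% (23 of 279) for scores from 50 to 60, 6.25% (4 of 64) from 60 to 70 and 5.56% (1 of 18) from 70 to 80. Above this it was 2 of 4 peaks from 80 to 100, 6 of 10 from 100 to 150 and 6 of 10 above 150. The 361 peaks at or below 80 had 28 at a protein-coding TSS (7.76%, interval 5.22 to 11.0%), and this interval did not overlap that of the 24 peaks above 80. For ZNF251 the share stayed between 11.7 and 13.3% over the same bins. For ZNF746 it was 43.0% from 50 to 60 and between 72.9 and 88.2% in the bins above.

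**Figure D2:**
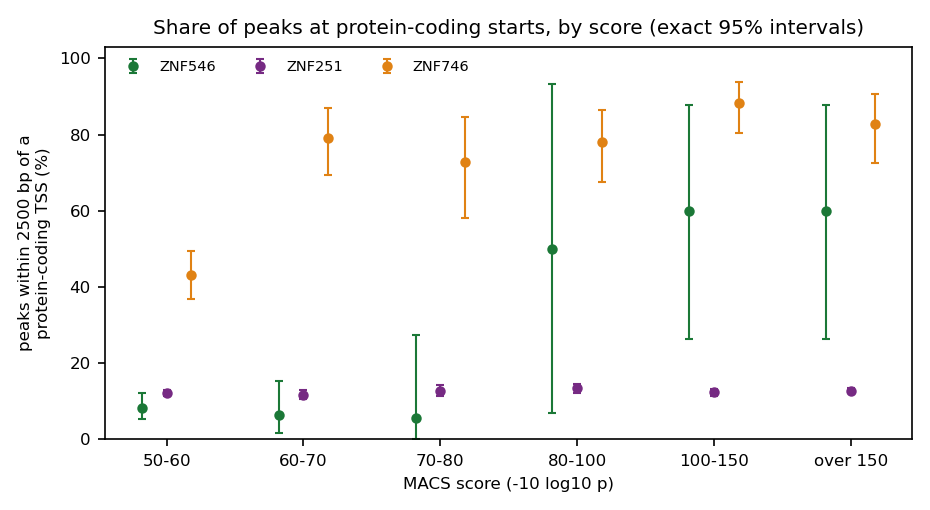
Percentage of peaks within 2500 bp of a protein-coding TSS (vertical axis) in 6 bins of the MACS score (horizontal axis) for ZNF546, ZNF251 and ZNF746, with exact 95% intervals as bars. The ZNF546 points lie at or below 8.24% in the bins under 80 and at or above 50.0% in the bins over 80, while ZNF251 stays near 12%.

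The 3 members just above the score of 80 were the TNFRSF11A promoter (88.93), a site on chromosome 2 from 92284197 to 92284628 (86.61) and the CYP2U1 promoter (83.99). The 3 peaks just below it were at the pseudogene FAM86C2P (79.78), in an intron of MYO1D (79.09) and in an intergenic site on chromosome 9 from 17819006 to 17819388 (77.32).

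The 14 promoter peaks belonged to genes of varied roles, and 13 of them are described by name. The highest, with a score of 345.57 and a length of 714 bp, lay at the TSS of ZNF697, which encodes another C2H2 zinc finger protein (chr1:120190443-120191156). An alternative start of PHGDH, the first enzyme of serine synthesis, was within the same window, and brought the protein-coding genes to 15. ACTR2, the ARP2 subunit of the Arp2/3 complex of the actin cytoskeleton, had a score of 144.07 (chr2:65454883-65455360). Both of these peaks spanned the TSS of their gene.

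Genes of the cell surface and of secreted factors are listed together here for description only. The share of such genes among all protein-coding genes was not counted. TSPAN7, a tetraspanin membrane protein expressed in neurons, had a score of 242.93 (chrX:38420703-38421051). DSCAM, an immunoglobulin-superfamily adhesion molecule of neurons, had 155.79 (chr21:42218653-42218924). BMP8B, a bone morphogenetic protein, had 186.01 (chr1:40253868-40254414), and its peak began 123 bp downstream of the TSS. NDNF, a secreted neurotrophic factor, had 130.45 (chr4:121993334-121993708). TNFRSF11A, the receptor RANK of osteoclast precursors, had 88.93 (chr18:59992292-59992738). The scores of these 5 genes lay between the 6th and the 22nd of all 24, so that they took no single place in the ranking.

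The remaining promoter peaks were at genes of other roles. DESI2, a predicted deSUMOylating isopeptidase, had 207.41 (chr1:244816148-244816594). MSANTD3, a protein with a Myb/SANT DNA-binding domain, had 129.73 (chr9:103189324-103189933), and SNU13, a protein of the spliceosome and of box C/D snoRNPs, had 103.03 (chr22:42084468-42084978). FOXL3, a forkhead gene, had 120.15 (chr7:330929-331232), and this peak was the one farthest from a protein-coding TSS, at 793 bp. ATP5F1B, the beta subunit of mitochondrial ATP synthase, had 116.63 (chr12:57039547-57039930), and CYP2U1, a cytochrome P450 that hydroxylates long-chain fatty acids, had 83.99 (chr4:108852574-108853085).

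The promoter peaks centred just downstream of the TSS. Of the 14, 11 spanned a protein-coding TSS, 12 had their midpoint downstream of it and 11 had it within 250 bp. The midpoints of the ZNF746 and ZNF251 promoter peaks were not measured, so this position is not shown to be particular to ZNF546. The midpoints upstream were those of DESI2 (−57 bp) and TNFRSF11A (−28 bp). The closest downstream midpoint was at 29 bp (ATP5F1B), and those beyond 250 bp were at 295 bp (DSCAM), 396 bp (BMP8B) and 945 bp (FOXL3). A 5′ UTR lay under 13 of the peaks and a coding exon under 9, and 7 of the 14 genes were on each strand.

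**Figure D3:**
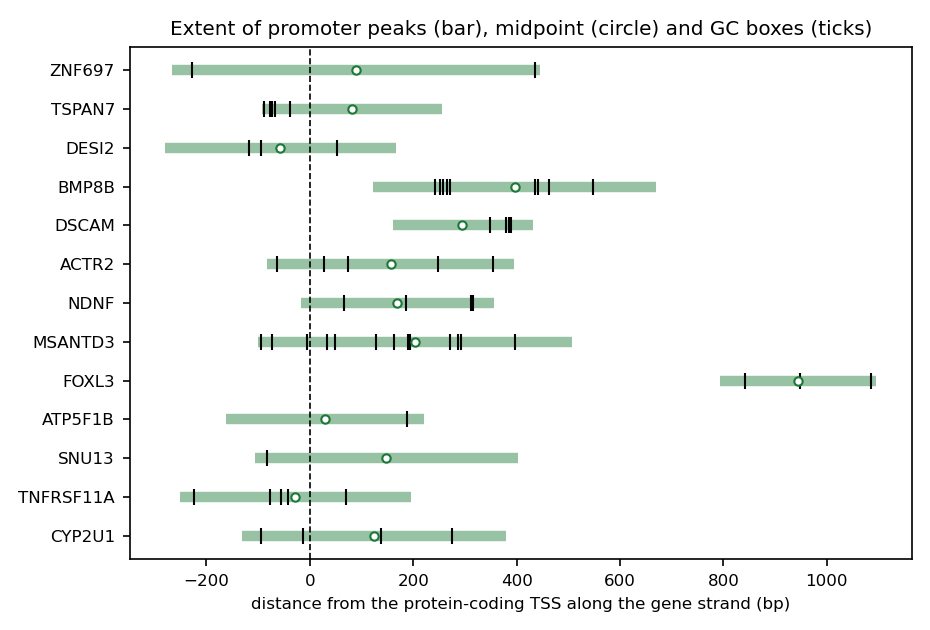
Extent of 13 of the 14 promoter peaks (green bar), its midpoint (circle) and its GC boxes (black ticks) against the distance in bp from the protein-coding TSS along the strand of the gene, which is the dashed line at 0. The bars of 10 genes cross the TSS, those of BMP8B, DSCAM and FOXL3 lie wholly downstream, and 59 GC boxes are drawn in all.

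The sequence under these peaks was that of GC-rich CpG islands. GC content ran from 60.4% (ATP5F1B) to 84.1% (MSANTD3), with a median of 75.4%, and the ratio of observed to expected CpG ran from 0.685 to 1.09, with a median of 0.883. All 14 met a CpG-island criterion of at least 200 bp, 50% GC and a CpG ratio of 0.6. Windows of 462 bp, the rounded median length of the 14 peaks, at 19881 canonical protein-coding TSSs had medians of 64.9% GC and 0.781, and 67.7% met the criterion. The medians were 72.1% and 0.831 for the 217 promoter peaks of ZNF746, and 53.9% and 0.647 for the 2667 of ZNF251. The 28 weaker ZNF546 peaks at a protein-coding TSS had medians of 71.4% and 0.693, while the 333 weaker peaks elsewhere had 48.2% and 0.219.

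**Figure D4:**
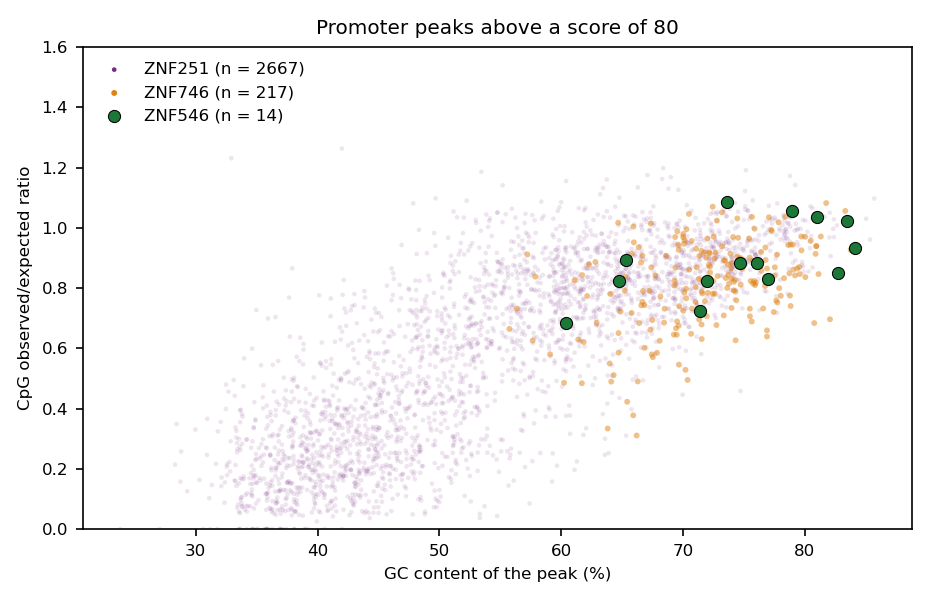
GC content in percent (horizontal axis) and CpG observed/expected ratio (vertical axis) of promoter peaks above 80, with 1 point per peak for ZNF546 (n = 14), ZNF746 (n = 217) and ZNF251 (n = 2667). The ZNF546 points lie at the GC-rich side, at 60.4% GC or more, among the ZNF746 points, while the ZNF251 points spread from 23.8 to 85.7% GC.

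Each of the 14 promoter peaks held at least 1 GC box, GGGCGG or its reverse complement CCGCCC, as an exact match. This short element was also present in 68.6% of the windows at canonical TSSs, in 94.5% of the ZNF746 promoter peaks and in 49% of those of ZNF251, so that its presence alone did not set ZNF546 apart from ZNF746. In the 300 bp around the midpoint, 11 of the 14 still held one. The number per peak, overlapping matches counted, ran from 1 (ATP5F1B and SNU13) to 13 (MSANTD3), with 9 at BMP8B. Per 100 bp, the median was 1.02 for ZNF546, 0.851 for ZNF746 and 0.433 for the TSS windows. The GC boxes lay on both sides of the TSS, as the plot of peak extents shows.

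Other promoter elements were searched as exact matches on both strands. The windows were centred on the TSS, whereas 12 of the 14 peaks had midpoints downstream of it. Most peaks therefore held less upstream sequence than a window, and the shares are not a matched comparison. The TATA box (TATAAA) was in 0 of 14 peaks, against 10.8% of the windows, and the CCAAT box (CCAAT) in 2 (ATP5F1B and CYP2U1), against 41.5%. A count of 0 of 14 allows a share of up to 23.2%, so the TATA result was not distinguishable from the windows. The E-box (CACGTG) was in 3 (DESI2, SNU13 and CYP2U1), against 10.4%, and the ETS element (CCGGAAG) in 2 (ACTR2 and MSANTD3), against 16.2%. No interval was computed for the counts of CCAAT, E-box and ETS, so with 14 peaks no difference from the windows is claimed for them. The remaining elements, those of CREB (TGACGTCA), NRF1 (GCGCATGCG), YY1 (AAGATGGCG), ZNF143 (ACTACAATT) and AP-1 (TGACTCA) and the CpG element TCTCGCGAG, matched in 0 of 14, and each was in 4.52% of the windows or fewer. A word of 8 letters, CGCGGGGC (reverse complement GCCCCGCG), was in 11 of the 14 peaks, 15.8% of the windows, 24.0% of the ZNF746 and 10.9% of the ZNF251 promoter peaks. It was chosen after its counts in these peaks were seen, as the most frequent word of its length, and its last letters can run into a GC box.

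The promoters comprised some with a peak of ZNF546 alone and some that ZNF251 also occupied. Another KZFP had a peak above 80 at 5 of the 14 (35.7%, interval 12.8 to 64.9%), and at all 5 ZNF251 was one of them. The share of all promoters with a peak of any other KZFP was not counted, so this share has no background here. At DSCAM the scores were 155.79 for ZNF546, 265.33 for ZNF251, 174.74 for ZNF416 and 88.39 for ZNF850. At FOXL3 they were 120.15, 240.32, 90.87 and 97.13 in the same order. At TSPAN7 they were 242.93 for ZNF546, 210.61 for ZNF251 and 117.44 for ZNF416.

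At BMP8B the scores were 186.01 for ZNF546, 153.52 for ZNF251 and 81.75 for ZNF724P. At ATP5F1B they were 116.63 for ZNF546 and 351.25 for ZNF251, with no other KZFP. The score depends on library depth, which the lists do not give, so ranks are also given. The DSCAM, TSPAN7 and FOXL3 peaks ranked 13, 26 and 47 of 1348 in the ZNF416 library, but 7498, 9370 and 8210 of 31655 in that of ZNF251.

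With all deposited peaks of the other KZFPs counted, ZNF697 (ZNF251, 67.54) and MSANTD3 (ZNF763, 64.18) were also shared. The other 7 promoters, among them those of DESI2, ACTR2, NDNF, SNU13, TNFRSF11A and CYP2U1, overlapped no deposited peak of another KZFP. How often promoters in general lack such an overlap was not counted, so these 7 are not shown to be specific to ZNF546. At NDNF a ZNF251 peak with a score of 405.75 lay 462 bp from the ZNF546 peak. The lists begin at a score of 50, and weaker signal was not analysed here.

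**Figure D5:**
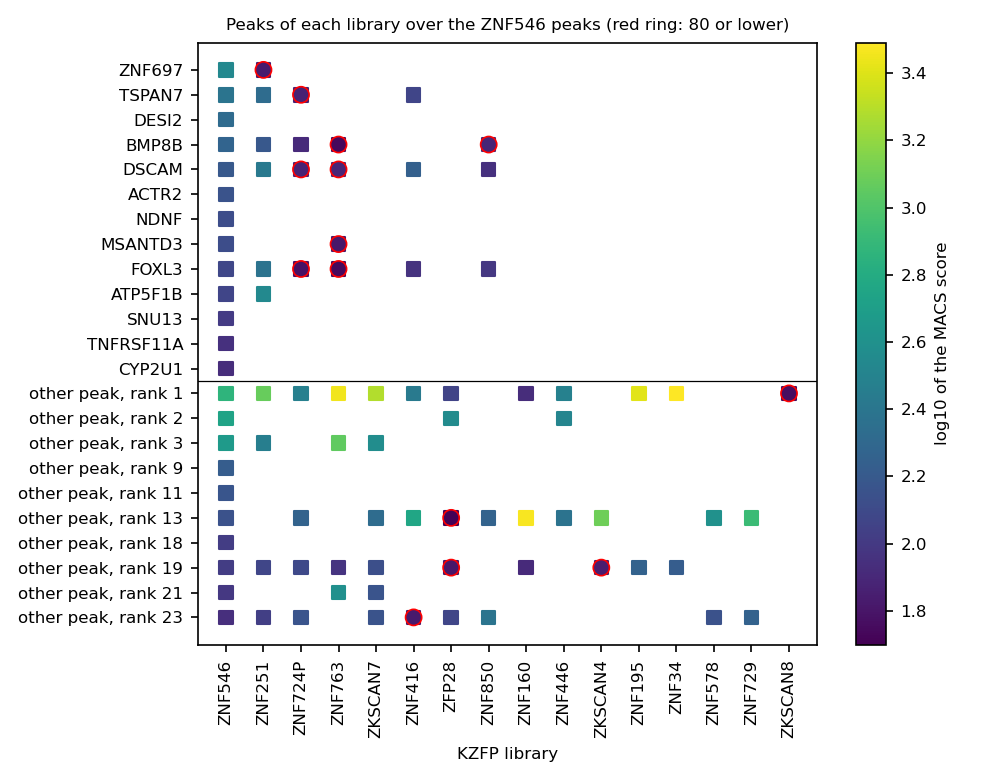
Peaks of each KZFP library (columns) that overlap 23 of the 24 ZNF546 peaks (lines of squares), 13 promoters above the line and the 10 other sites below it, with colour for the log10 of the MACS score and a red ring for scores of 80 or lower. At 6 promoters ZNF546 has the only square, whereas 7 of the 10 other sites carry peaks above 80 of 2 to 10 other KZFPs.

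ZNF251 overlapped 9 of the 24 ZNF546 peaks (37.5%, interval 18.8 to 59.4%), which was 0.0429% of its 20974 peaks. Of these 9, 5 were promoter peaks and 4 were among the other 10. By gene, 7 of the 15 protein-coding genes with a ZNF546 peak at a TSS also had a ZNF251 peak above 80 within 2500 bp of one of their TSSs (ATP5F1B, BMP8B, DSCAM, FOXL3, NDNF, PHGDH and TSPAN7), 46.7% of one list and 0.254% of the 2757 genes in the other. At the ZNF546 peak of ZNF697, which has the PHGDH start within 2500 bp, the overlapping ZNF251 peak scored 67.54. Among all canonical protein-coding promoters, 11.3% held a ZNF251 peak above 80 within 2500 bp, counting canonical TSSs only. The gene lists count every protein-coding TSS, and by that count 2757 of 19794 protein-coding genes had such a peak. The 24 peaks include 10 that were not at a protein-coding promoter, so their overlap of 37.5% has no matched background here.

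ZNF746 overlapped 0 of the 24 ZNF546 peaks, which allows a share of up to 14.2%, and 0 of the 14 promoter peaks, which allows up to 23.2%. Among all canonical promoters 1.04% held a ZNF746 peak, so that an overlap in 0 of 14 was not distinguishable from this background. By gene, 0 of 15 were shared with the 230 genes of ZNF746, and with all deposited peaks 0 of 46 with 434. Among all 385 ZNF546 peaks 1 overlapped a ZNF746 peak above 80, in an intron of MYO1D, a myosin gene (chr17:31149222-31150012, 79.09 for ZNF546 and 108.83 for ZNF746). ZKSCAN7, ZNF251 and ZNF763 also had peaks above 80 there. The ZNF746 library was made by ChIP-seq and the ZNF546 library by ChIP-exo, so that assay and protein cannot be told apart in this comparison.

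The lists of genes examined beside the promoters held few ZNF546 peaks, and so did protein-coding genes as a whole. All protein-coding genes gave 15 of 19794 (0.0758%), and with all deposited peaks 46 (0.232%). Of 604 zinc finger genes 1 had a peak above 80 at a TSS (ZNF697), and with all deposited peaks ZNF713 was added (2 of 604, 0.331%). Histone genes (0 of 90), cytosolic ribosomal protein genes (0 of 91), mitochondrial ribosomal protein genes (0 of 78), ER chaperone and unfolded protein response genes (0 of 26), small nuclear RNA genes (0 of 1879) and the genes of TRIM28 and HP1 (0 of 4) had none above 80. The protein-coding lists among these are too small for a count of 0 to differ from the share over all protein-coding genes. The cytosolic ribosomal protein gene RPS29 had a weaker peak (1 of 91). Of 1312 microRNA genes, MIR3648 and MIR3687 had a peak above 80, the same one.

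Below the score of 80, the 10 highest peaks at protein-coding promoters were of mixed sequence. Those at ETNK2, an ethanolamine kinase (75.53), CUX1, a homeobox factor (61.46), PDGFB, a growth factor (55.81), and WNT3, a WNT ligand (55.14), had a GC content between 78.5 and 82.9%. The peak at ZNF713, itself a KZFP gene (66.81), had 79.7% and 10 GC boxes in 212 bp. The peaks at TPTE2 (60.69) and EIF4E, the cap-binding translation factor (59.5), had 69.1 and 50.0%. Those at CDC27, a subunit of the anaphase-promoting complex (61.49), and CDH11, a cadherin (58.31), had 34.4 and 36.2%, and a peak between KRCC1 and SMYD1 (58.93) had a CpG ratio of 0.0591. At CDC27, CUX1, CDH11 and KRCC1 other KZFPs also had peaks above 80.

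The 10 peaks above 80 that were not at a protein-coding promoter included the 3 highest. The first (736.44, chr2:33141264-33141760) lay over a run of G in an intron, was 96.3% GC, and had peaks above 80 in 10 other libraries, with scores up to 3100.0 in ZNF34. The second (545.34, chr10:42385900-42388775) was 2876 bp long and 30964 bp from an assembly gap, and the 5-base word GGAAT or its reverse complement ATTCC, characteristic of human satellite DNA, made up 24.2% of its bases. The third (463.78, chr21:9825438-9827776) abutted an assembly gap and covered the microRNA genes MIR3648 and MIR3687. It was 73.2% GC with a CpG ratio of 1.09 and 16 GC boxes over 2339 bp. Of the 10 peaks, 4 met the CpG-island criterion, namely the first, the third and those at chr9:98980283 and chr1:156186203. The first met it with only 8 CpG sites in 497 bp. To show simple repeats among them, 90 bases are printed of the first (chr2:33141467-33141556, plus strand) and of a site in an intron of SENP5, a SUMO protease gene (chr3:196625692-196625781, plus strand), with GGAAT and ATTCC in capitals.
Chromosome 2 site: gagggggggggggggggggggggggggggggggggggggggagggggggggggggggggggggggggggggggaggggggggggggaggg
Chromosome 3 site: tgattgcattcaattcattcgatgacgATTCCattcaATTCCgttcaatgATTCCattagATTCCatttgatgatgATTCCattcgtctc

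The SENP5 site (142.18, chr3:196625509-196625965) had peaks above 80 in 9 other libraries, and the site on chromosome 2 from 38289847 to 38290196 (103.94) and that from 92284197 to 92284628 (86.61) each in 7. The site in an intron of PMF1, a kinetochore protein gene (97.38, chr1:156186203-156186864), was shared with ZKSCAN7 and ZNF763, and had 62.1% GC, a CpG ratio of 0.862 and 3 GC boxes. Thus at 7 of these 10 sites another KZFP had a peak above 80 (interval 34.8 to 93.3%), as it had at 5 of the 14 promoter peaks. These intervals overlapped.

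The 3 sites without a peak of another KZFP were on chromosome 9 (167.45, chr9:98980283-98980844), chromosome 19 (148.57, chr19:14405834-14406383) and chromosome 17 (104.36, chr17:30387561-30388113). The last 2 are the copies printed above. Aligned to each other with blastn, they matched at 95.1% of 549 positions. A search of hg19 with the chromosome 19 peak found 3 copies of it, and all 3 carried a deposited ZNF546 peak. The third (66.84, chr17:28971589-28972061) was intronic to the long non-coding RNA gene ENSG00000214719.

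The peaks sat at the same place in each copy. Projected onto the 550 bp of the chromosome 19 peak, the midpoints fell at 275, 272 and 274 bp, within 3 bp of each other. The copies belong to a larger duplication, since 10023 and 10492 of 12550 bp around the chromosome 19 peak aligned to the chromosome 17 copies, and the longest alignments had 95.3 and 95.6% identity. No other KZFP library had a deposited peak at any of the 3. Their GC content was 50.7 to 51.2% and their CpG ratio 0.251 to 0.329, both below the range of the promoter peaks. They held 0 or 1 GC boxes, against 1 to 13 in the promoter peaks. A read from 1 copy could be placed at another where they are identical, as over the 90 bases shown for the chromosome 17 copies, so the 3 peaks are not separate observations. This search was added after the sequences had been seen.

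The 385 ZNF546 peaks were also aligned to one another. Of the 14 promoter peaks 0 aligned to another ZNF546 peak over at least 150 bp, against 7 of the 10 other peaks above 80 and 141 of the 361 at or below 80 (39.1%). The remaining 3 of the 10 and 220 of the 361 aligned to none either. The SENP5 site aligned to 58 other ZNF546 peaks and the chromosome 2 site from 92284197 to 12. The sites on chromosome 2 from 38289847 and in PMF1 aligned to each other at 91.8% of 208 positions.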

How the data were processed

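Libraries of 21 KZFPs and of a HEK293T control were taken as peak lists, 1 per library, in hg19. Per the labels, reads were mapped with Bowtie2 2.2.1 and peaks called with MACS 1.4. The study's methods name later versions. For ChIP-exo, mapping was local and very sensitive, duplicates were kept, and the control was total input. The methods state a mapping-quality filter above 10 for ChIP-seq only. The methods give a minimum depth of about 15 M reads of 100 bases for ChIP-exo and 27 M of 85 bases for ChIP-seq. The depth of each library is unknown, so no interval reflects it. The deposited score is 10 times the negative log10 of the p-value as the authors' MACS run gave it, with a minimum of 50. The threshold of 80 and the TSS window of 2500 bp are those of the methods.

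Coordinates were compared with GRCh37 and no peak passed a chromosome end. Annotation was GENCODE 44 lifted to GRCh37 (254376 transcripts). Overlap meant at least 1 shared base. Intervals used scipy 1.17.1, sequences pysam 0.24.0, tables pandas 2.3.3, and alignments blastn 2.17.0 (at least 150 bp, expectation at most 1e-10, or 1e-20 for genome copies). Overlap and TSS counting were tested on simulated peaks with known answers. Named were every ZNF546 peak above 80, the 10 highest at or under 80 at a protein-coding TSS, the 3 on each side of 80, peaks over the ZNF546 gene and those shared with ZNF746. The copies of the chromosome 19 site were added. Of the promoter peaks, 1 counts in the totals but is not reported by name. Members, motifs and gene lists were chosen with earlier results of these data known. Alternatives were other score thresholds, TSS windows, overlap rules and peak sets.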

Additional observations from a re-analysis of the deposited data

How the results depend on the processing

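Of 36 alternatives over 8 results, 29 left the value within its interval or within 1.5 times the count, and 7 moved it. All 7 came from another score threshold for ZNF546 peaks. With all deposited peaks, the count was 385, the share at a TSS 24.9%, the protein-coding genes 46 and the peaks shared with ZNF746 1. Peaks shared with ZNF251 were then 18 of 385 (4.68%, interval 2.79 to 7.29%), a lower share than the 37.5% of the 24 above 80. With a score above 150 the count was 10 and the genes 7, while 7 of those 10 peaks were at a TSS. TSS windows from 500 to 5000 bp gave shares of 62.5 to 79.2%, and leaving out regions with peaks of 5 or more other KZFPs gave 16 of 20. No paired analysis was possible because each KZFP had 1 library and no result came from a test. With 24 peaks the share at a TSS carries an interval of 48.9 to 87.4%, and smaller differences from other libraries were not detectable. Library depth was not given in the lists.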

Other observations

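The 385 deposited ZNF546 peaks were spread over all chromosomes but Y. Per 10 Mb of sequence outside gaps, chromosome X had 2.25 peaks (34 in all), against 2.01 or fewer on each other chromosome. These differences were not tested, and the copy number of each chromosome in the cells was not taken into account. The HEK293T control overlapped 1 of the 385 peaks.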
